A study of Mus musculus with 26 samples.

Results

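The 9 genes described here belong to the hormone and catecholamine systems that act on the heart, and they were followed through left ventricle RNA of 26 mice. They are the β1 adrenergic receptor gene Adrb1, the α1 adrenergic receptor genes Adra1a and Adra1b, the angiotensin II receptor gene Agtr1a, the gene Ace for angiotensin-converting enzyme, the endothelin receptor genes Ednra and Ednrb, and the natriuretic peptide receptor genes Npr1 and Npr3. The 9 genes were taken by name from a matrix of 56941 genes, and each had enough reads to be among the 15357 genes tested. The mice were 12 to 16 weeks old and had carried an osmotic minipump that delivered saline for 2 weeks. Knockout mice (cKO) had the genotype aMHC-CreTg/0-Ppp2r2aL/L and control mice (Ctrl) aMHC-Cre0/0-Ppp2r2aL/L, so both carried loxP-flanked Ppp2r2a alleles and cKO alone carried a Cre recombinase driven by the cardiomyocyte promoter αMHC. Ppp2r2a encodes B55α, which directs protein phosphatase 2A to its substrates. The males comprised 6 Ctrl and 7 cKO mice and the females likewise 6 Ctrl and 7 cKO, on a mixed background with floxed mice from C57BL6/N and Cre mice from FVB. Cre carriers lacking the floxed alleles were not analysed here, so Cre expression and FVB sequence cannot be told apart from loss of Ppp2r2a.

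Catecholamines act on the heart through β1 receptors, which couple to Gs and raise cyclic AMP and contractility, and through α1 receptors, which couple to Gq. Angiotensin II and endothelin-1 also reach Gq through AT1 and ETA receptors, whereas the natriuretic peptides ANP and BNP activate the guanylyl cyclase NPR1 and are cleared by NPR3, which lacks a cyclase domain. In the angiotensin system, angiotensinogen is cut by renin and then by ACE to give angiotensin II, which aminopeptidases degrade.

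Ace was the 1 member that passed the test in any comparison, and the comparisons it passed were between the sexes. Its promoters and that of Agt, the gene for the precursor angiotensinogen, are shown because these are the genes of the set and of its ligands with the clearest sex difference. The windows are the 250 bases before each RefSeq start (build GRCm38.p6), written 5′ to 3′ on the gene's strand. Capitals mark matches on either strand to the TATA box letters TATAA, to the GC box letters GGGCGG, or to the letters GGTCA, which form the core of an estrogen receptor site. RefSeq lists 2 starts for Ace, an upstream one used in somatic tissue at chr11:105967698-105967947 (plus strand) and an internal one known from the testis at chr11:105974939-105975188 (plus strand). The Agt window lies at chr8:124569707-124569956 on the minus strand.
Ace upstream: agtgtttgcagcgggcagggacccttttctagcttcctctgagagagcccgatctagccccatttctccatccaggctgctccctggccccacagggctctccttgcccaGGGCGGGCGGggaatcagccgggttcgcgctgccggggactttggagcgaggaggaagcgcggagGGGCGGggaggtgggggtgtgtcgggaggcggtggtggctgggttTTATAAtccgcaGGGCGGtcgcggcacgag
Ace internal: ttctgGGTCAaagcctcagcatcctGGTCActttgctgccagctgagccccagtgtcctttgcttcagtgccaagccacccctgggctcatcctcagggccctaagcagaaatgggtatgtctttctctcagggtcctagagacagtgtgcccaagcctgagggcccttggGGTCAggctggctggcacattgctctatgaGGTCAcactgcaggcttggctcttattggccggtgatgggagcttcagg
Agt: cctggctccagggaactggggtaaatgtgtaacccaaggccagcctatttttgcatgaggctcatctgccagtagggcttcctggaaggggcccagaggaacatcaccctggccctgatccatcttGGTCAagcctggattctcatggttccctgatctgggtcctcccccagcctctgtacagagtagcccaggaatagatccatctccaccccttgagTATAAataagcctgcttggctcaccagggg

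The upstream Ace window had a GC content of 67.2%, against a median of 52.4% over 32841 windows of the same length. It held TATAA on each strand in overlapping letters, ending 24 bases before the start on the nearer strand, and 4 copies of GGGCGG, of which the first pair overlap. TATAA was found in 22.8% of all windows and GGGCGG in 32.7%. The internal Ace window held neither, and it held GGTCA 4 times. GGTCA was present in 35.2% of all windows and at least 4 times in 0.259%. None of the 3 windows held the paired form of an estrogen receptor site, GGTCA and its reverse complement spaced by 3 bases, which 0.0639% of all windows held. The Agt window held TATAA once, ending 25 bases before the start, and GGTCA once. The letters AGAACA, the core of an androgen receptor site, were in none of the 3 windows and in 16.1% of all windows. These matches describe letters and show no bound site, and counts summed over a gene cannot tell its starts apart.

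Libraries held between 14403102 and 30867399 counts. Ppp2r2a was at 24.1 to 47.7 CPM (counts per 1000000 counts of the library) in Ctrl males, 36.2 to 46.7 in Ctrl females, 11.8 to 16.2 in cKO males and 9.96 to 16.2 in cKO females, so no cKO mouse overlapped a Ctrl mouse. The lowest Ctrl mice were males 3 (24.9 CPM) and 6 (24.1 CPM). The cardiomyocyte gene Myh6 had a median of 27855 CPM, and the atrial markers Myl7 and Sln had no read in 20 and 17 mice and at most 3 in the others. The tissue was whole ventricle, so fewer cells of a type and less RNA per cell cannot be told apart in any value below.

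Compared per kilobase of the longest annotated transcript, Ace had the highest mean of the 9 genes at 18.5 ± 4.55 CPM per kb (SD over 26 mice). It was above Agtr1a in 20 of 26 mice, and in Ctrl females the mean of Ednra (15.6 ± 2.15 CPM per kb) was above that of Ace (14.6 ± 2.72 CPM per kb). Agtr1a at 13.1 ± 1.70 and Ednra at 13.1 ± 2.09 CPM per kb followed and did not differ beyond their spread. Npr1 (7.46 ± 0.697), Adra1b (6.41 ± 1.27), Adrb1 (6.36 ± 1.41) and Ednrb (5.98 ± 1.41) formed a middle group in CPM per kb, in which no neighbour differed from the next beyond the spread. Adra1a (4.27 ± 0.811) and Npr3 (3.47 ± 0.747) were the lowest and also lay within their spread. The ETA receptor gene Ednra exceeded Npr1 in 26 of 26 mice, the one step of the order that every mouse showed. With the length of all annotated exons in place of the longest transcript, Adra1a was at 2.10 and Npr3 at 2.55 CPM per kb, so their order turned. Ednrb (5.75) then stood above Adrb1 (5.55), and Agtr1a (10.4 ± 1.34) above Ednra (8.65 ± 1.38) by more than either SD. In Ctrl females Ace (13.5 ± 2.52) was then above Ednra (10.3 ± 1.42), so that order turned too.

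**Figure D1:**
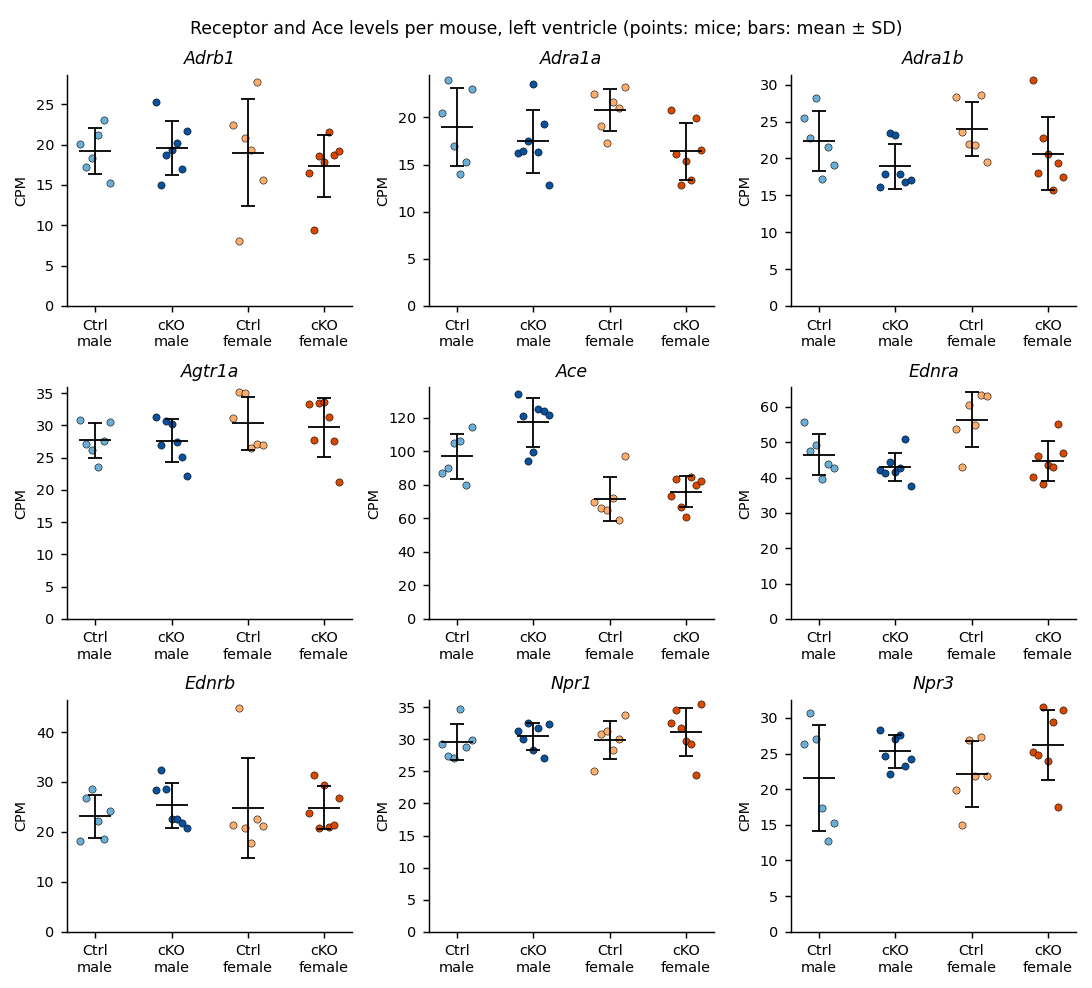
CPM of the 9 genes in each of the 26 mice (points), by genotype and sex, with the mean and SD of each group as bars; all axes start at 0. Only the Ace panel shows a pair of groups apart, the cKO females at 60.9 to 84.6 CPM below the cKO males at 94.3 to 134 CPM.

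The genotype comparison asked whether loss of B55α from cardiomyocytes moved these genes in either sex. None of the 9 passed edgeR's quasi-likelihood test at an adjusted p under 0.05 in males, in females or in the mean over both sexes. The share of all tested genes that passed was 0.443% for males, 0.0326% for females and 1.33% for the mean genotype effect. At an unadjusted p under 0.05 the count was 1 of 9 in males (13.2% of all genes), 2 of 9 in females (5.15%) and 4 of 9 in the mean effect (14.1%), namely Adra1a, Adra1b, Ace and Ednra. The same 9 genes had a median log2 fold change of 0.03 in males and -0.03 in females, beside 0.00 over all genes in each sex. With DESeq2 the count stayed at 0 in males and 0 in females and was 1, Ednra, in the mean effect. The ranges of cKO and Ctrl overlapped for each of the 9 in both sexes, as for most genes: they did not overlap for 1.28% of genes in males and 0.169% in females. No gene passed for the difference between the genotype effects in the 2 sexes (0% of all genes tested), and 0 of the 9 members had an unadjusted p under 0.05 there, against 3.96% of all genes.

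Adrb1, the receptor through which noradrenaline drives heart rate and contractility, had a lowest, median and highest level of 15.3, 19.2 and 23.1 CPM in Ctrl males and 14.9, 19.4 and 25.3 in cKO males. In Ctrl females these were 8.10, 20.1 and 27.7 CPM, and in cKO females 9.45, 18.5 and 21.6 CPM. The groups overlapped throughout, and the 2 lowest mice were the females numbered 2 of each genotype. The cKO effect on the log2 scale was 0.03 (95% interval -0.37 to 0.42) in males and -0.12 (-0.52 to 0.28) in females.

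Adra1a and Adra1b, which encode α1 receptors, had lower means in cKO than in Ctrl mice of each sex, without passing the test. The third α1 gene, Adra1d, named here after its values were seen, had means of 3.94 and 2.98 CPM in Ctrl and cKO males and 3.42 and 3.52 CPM in Ctrl and cKO females, and its log2 differences were -0.41 (edgeR adjusted p 0.427) and 0.05 (adjusted p 0.999). Adra1a, whose receptor is linked to protective signalling in cardiomyocytes, was at 14.0, 18.8 and 24.0 CPM (lowest, median, highest) in Ctrl males and 12.8, 16.5 and 23.6 in cKO males. Ctrl females had 17.3, 21.3 and 23.2 CPM and cKO females 12.8, 16.1 and 20.7 CPM, and all 7 cKO females lay below the Ctrl female mean. The female log2 difference was -0.34 (SE 0.14, unadjusted p 0.02, edgeR adjusted p 0.932), the male one -0.12 (adjusted p 0.777), and the mean effect -0.23 (adjusted p 0.256).

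Adra1b was at 17.3, 22.1 and 28.2 CPM in Ctrl males and 16.1, 17.9 and 23.5 in cKO males. In females the levels were 19.5, 22.8 and 28.5 CPM in Ctrl and 15.8, 19.3 and 30.6 in cKO, where mouse 1 was the highest of all 26. The log2 differences were -0.24 in males (edgeR adjusted p 0.467) and -0.22 in females (adjusted p 0.969), and the mean effect was -0.23 (SE 0.10, adjusted p 0.26). The ratio of Adra1b to Adra1a counts, not corrected for length, had group means between 1.10 and 1.27. Adra1b deviations had r = -0.531 with the fibroblast marker sum (rho = -0.577, permutation p 0.00806, adjusted 0.0867 over 81 relations, which are those among the members and of each member with 5 marker sums, and r = -0.635 without the 2 most distant mice), and with the fibroblast and cardiomyocyte sums in the fit the mean effect was -0.12 (adjusted p 0.743).

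Of the 27 genes listed for adrenergic signalling, which span the other receptors, G proteins, adenylyl cyclases, receptor kinases, arrestins, protein kinase A and phosphodiesterases, 25 were tested and 0 passed in either genotype comparison. At an unadjusted p under 0.05 there were 2 in males (13.2% of all genes) and 0 in females (5.15%). The median log2 fold changes were 0.04 and -0.01 beside 0.00 over all genes. Of the 18 genes of the Gq pathway, all tested, 0 passed in either genotype comparison. In males 1 and in females 2 had an unadjusted p under 0.05, beside the same shares of all genes. The medians were 0.02 in males and 0.05 in females. In the mean sex effect the adrenergic list had 1 higher and 1 lower gene of 25, near the background of 7.71% of all tested genes called, so the count says nothing particular to the list. Adcy6, a main cardiac adenylyl cyclase, rose from 226 ± 19.7 (SD, n = 6) and 232 ± 17.3 (SD, n = 7) CPM in Ctrl and cKO males to 265 ± 21.6 and 261 ± 21.8 in females, a log2 difference of 0.20 (SE 0.05, edgeR adjusted p 0.00658). With the fibroblast and cardiomyocyte marker sums as covariates the Adcy6 difference was 0.11 (adjusted p 0.197). Prkar1a, a regulatory subunit of protein kinase A, was lower in females by the mean sex effect of -0.23 (SE 0.05, adjusted p 0.00559), and in cKO mice by -0.24 (adjusted p 0.0479), a call lost when any one of several mice of each genotype was left out (up to 0.0979, without cKO female 7). Of the Gq list, Itpr3, an inositol trisphosphate receptor gene, was higher in females by 0.20 (SE 0.06, adjusted p 0.032), a call lost in several alternatives, among them omission of Ctrl male 2 (adjusted p 0.0584) and the marker covariates (adjusted p 0.116).

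**Figure D2:**
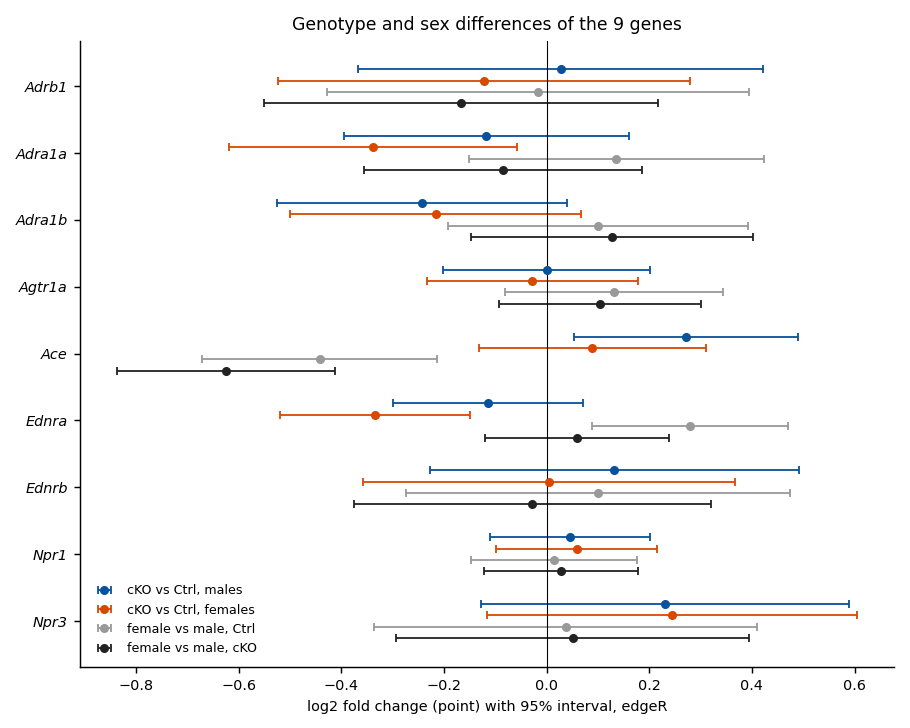
Log2 fold change (points) with its 95% interval (bars) from edgeR for the 9 genes, for cKO against Ctrl in each sex and female against male in each genotype; 0 marks no difference. Both Ace sex differences lie left of 0, at -0.44 in Ctrl and -0.62 in cKO. The Adra1a and Ednra genotype differences in females lie at -0.34 and -0.33. The intervals are not adjusted for the number of genes tested, and some exclude 0 without a call. Of the differences shown, only the Ace sex difference in cKO passed at an adjusted p under 0.05.

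Agtr1a, which encodes the AT1 receptor, did not pass in any comparison. Its levels were 23.6, 27.4 and 30.9 CPM in Ctrl males, 22.1, 27.4 and 31.3 in cKO males, 26.5, 29.1 and 35.2 in Ctrl females, and 21.2, 31.3 and 33.6 in cKO females. The cKO effect was 0.00 (95% interval -0.20 to 0.20) in males and -0.03 (-0.23 to 0.18) in females on the log2 scale. Agtr1b and Agtr2, which encode the other angiotensin II receptors, had at most 4 reads in any library and were not tested, so nearly all angiotensin receptor reads came from Agtr1a. Across mice, deviations of Agtr1a from its group means had r = 0.601 with the summed cardiomyocyte markers (rho = 0.673, permutation p 0.00332, and r = 0.607 without the 2 most distant mice). This did not pass after adjustment (0.0547 over 81 relations). With the endothelial marker sum r was -0.522 (rho = -0.41, permutation p 0.00856, adjusted 0.0867), and -0.366 without the 2 most distant mice.

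Ace was lower in females than in males in the mean sex effect and among cKO mice, and among Ctrl mice the difference had the same direction without passing. Its product converts angiotensin I to angiotensin II and also degrades bradykinin. Levels were 79.9, 97.4 and 115 CPM (lowest, median, highest) in Ctrl males and 94.3, 122 and 134 in cKO males. Ctrl females had 58.7, 68.2 and 97.0 CPM, and cKO females 60.9, 80.1 and 84.6 CPM. All 7 cKO females were below all 7 cKO males, whereas Ctrl female 6, at 97.0 CPM, lay inside the range of the Ctrl males.

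In cKO mice the female to male log2 difference of Ace was -0.62 (SE 0.10, edgeR adjusted p 0.00126), a level 0.649 times that of males. Ace was the 1 member of 9 called lower there and 0 were called higher, when 2.7% of all genes were called, 1.27% lower and 1.43% higher, and 1.09% had ranges that did not overlap. In Ctrl mice the difference was -0.44 (SE 0.11, adjusted p 0.0618), so 0 of 9 members were called when 0.638% of all genes were, 0.287% higher and 0.352% lower, and 1.02% had separate ranges. The mean of both sex effects was -0.53 (SE 0.08, adjusted p 7.22e-05), and here too Ace was the 1 member called, beside 7.71% of all genes, 4.02% higher and 3.69% lower. The 9 members had a median mean sex effect of 0.04, beside 0.00 over all genes. Pooled over genotypes, no member had all females apart from all males, which 0.13% of genes did. The mean sex effect and the cKO sex difference of Ace passed in each alternative run, with adjusted p of 2.61e-09 to 0.00329 and of 1.68e-06 to 0.0239. The Ctrl difference passed when Ctrl female 6 (adjusted p 0.00674), Ctrl male 5 (0.0378) or cKO male 3 (0.0468) was left out alone. With any other single mouse left out its adjusted p lay between 0.052 and 0.137, and without both Ctrl males 3 and 6 it was 0.311.

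The cKO effect on Ace was 0.27 in males (SE 0.11, adjusted p 0.25 in edgeR), with 6 of 7 cKO males above the Ctrl male mean, and 0.09 in females (adjusted p 0.982). The difference of these effects was -0.18 (SE 0.15, adjusted p 0.999), so the sex difference was not shown to be larger in cKO.

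Of 5 cell type marker sums set against Ace within groups, the fibroblast sum rose with Ace and the cardiomyocyte sum fell. The macrophage, endocardial, atrial, epicardial and blood sums were not set against Ace in this way. The 7 cardiomyocyte markers summed to a mean of 56845 CPM in Ctrl males, 51655 in cKO males, 60438 in Ctrl females and 57321 in cKO females. Their ranges in that order were 53383 to 60203, 47063 to 56391, 54941 to 65316 and 52649 to 62589 CPM. The 7 fibroblast markers summed to 934, 1018, 852 and 908 CPM in the same order, with ranges of 767 to 1118, 893 to 1176, 723 to 973 and 799 to 1038. The 6 macrophage markers summed to means of 171, 174, 150 and 153 CPM in that order. The means of Ace, of the fibroblast sum and of the macrophage sum were thus all highest in cKO males and lowest in Ctrl females. The cardiomyocyte mean was lowest in cKO males and highest in Ctrl females. The fibroblast sum is carried mostly by Dcn, at a median of 502 CPM. The median log2 sex difference of the fibroblast markers was 0.00 in Ctrl, 0.08 in cKO and 0.04 in the mean sex effect. Within groups, Ace deviations correlated with the cardiomyocyte sum at r = -0.713 (rho = -0.683, permutation p 0.00021, adjusted 0.0101 over 81 relations) and with the fibroblast sum at r = 0.689 (rho = 0.690, permutation p 0.00025, adjusted 0.0101). Without the 2 mice farthest in Ace, Ctrl female 6 and cKO female 4, r was -0.648 and 0.644. The endothelial sum did not pass (r = 0.139, permutation p 0.512, adjusted 0.802). Nor did the smooth muscle and pericyte sum (r = -0.404, adjusted 0.311) or the Schwann cell sum (r = 0.347, adjusted 0.327). With the cardiomyocyte and fibroblast sums as covariates, the mean sex effect on Ace was -0.33 (adjusted p 0.00329) and the sex difference in cKO -0.38 (adjusted p 0.0239). The male genotype effect went from 0.27 to 0.06 (adjusted p 0.852). Single members of the lists moved too: in the mean sex effect, 2 cardiomyocyte markers were called higher in females, and of the fibroblast markers 1 was called higher and 2 lower. Of the 5 endocardial markers 2 were called higher, as was 1 of the 9 smooth muscle and pericyte markers, and their part in the Ace difference was not tested.

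**Figure D3:**
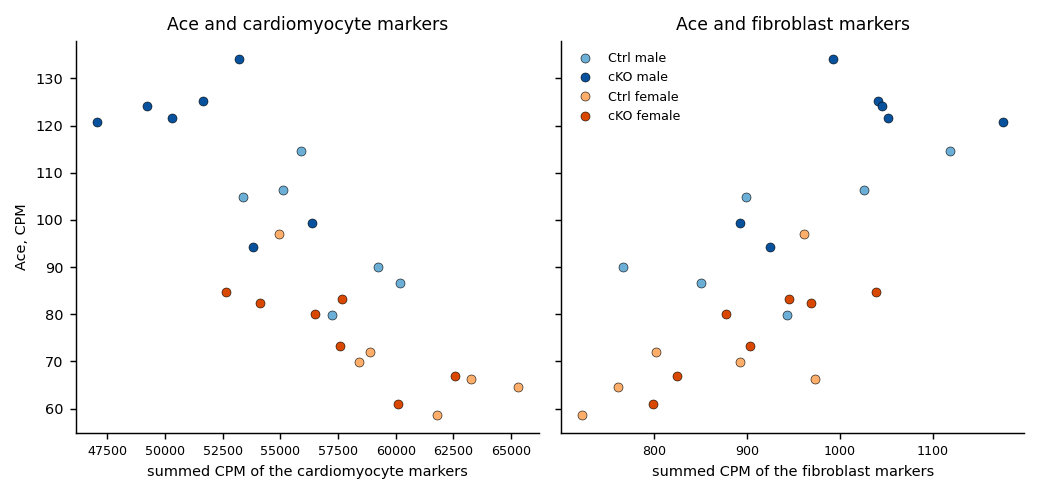
CPM of Ace against the summed CPM of 7 cardiomyocyte markers (left) and 7 fibroblast markers (right), 1 point per mouse, coloured by group. The cKO males, at 94.3 to 134 CPM of Ace, span fibroblast sums of 893 to 1176 CPM, and the Ctrl females, at 58.7 to 97.0 CPM, span 723 to 973 CPM.

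Among the other angiotensin genes, Agt was higher in females. It encodes the precursor of all angiotensins. Levels were 2.25, 3.95 and 5.20 CPM in Ctrl males, 2.78, 4.69 and 6.60 in cKO males, 6.37, 8.4 and 49.4 in Ctrl females, and 7.64, 9.83 and 27.6 in cKO females. The sexes did not overlap within either genotype, and Ctrl females 2 and 3 (49.4 and 34.3 CPM) and cKO females 2, 4 and 7 (27.6, 23.5 and 17.1 CPM) stood above the other females. The female to male log2 difference was 2.33 in Ctrl (SE 0.50, edgeR adjusted p 0.0273), 1.62 in cKO (SE 0.46, adjusted p 0.0574) and 1.97 on average (SE 0.34, adjusted p 0.00113). The Ctrl call was lost when any one of Ctrl males 2, 3, 4 and 6 or Ctrl females 2 and 3 was left out (adjusted p up to 0.0767), and with limma voom (0.144), the marker covariates (0.0675) or omission of Ctrl males 3 and 6 (0.171). The mean sex effect on Agt passed in each alternative run, with log2 values of 1.11 to 2.06. The adipocyte markers Adipoq, Plin1, Cfd, Retn, Ucp1, Cidec and Lep, a list chosen after the Agt values were seen, summed to 0.261 to 6.93 CPM in males and 1.51 to 11.4 in females, with the highest Adipoq at 2.35 CPM. Their part in the Agt difference was not tested.

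The peptidases that trim angiotensins differed by sex in opposite directions. Enpep, the aminopeptidase A gene, had lower levels in females, with a mean sex effect of -0.36 (SE 0.09, edgeR adjusted p 0.00938) and a difference in cKO of -0.46 (adjusted p 0.0331). Its means were 9.83 ± 1.55 and 10.9 ± 2.29 CPM in Ctrl and cKO males and 8.17 ± 0.797 and 7.92 ± 1.23 CPM in Ctrl and cKO females. Anpep, which encodes aminopeptidase N, had higher levels in females, with a mean effect of 0.38 (SE 0.08, adjusted p 0.00229) and 0.40 in cKO (adjusted p 0.0331). The Enpep call in cKO was lost without cKO male 1, 3 or 7 or cKO female 2, 3 or 6 (adjusted p up to 0.07), and the Anpep call without cKO male 1, 2, 4, 5, 6 or 7 or cKO female 1, 2, 4, 5 or 7 (up to 0.0716). With the marker covariates the mean effect on Enpep was -0.34 (adjusted p 0.0676) and that on Anpep 0.41 (adjusted p 0.0134). Of the 15 listed angiotensin genes 10 were tested. In the mean sex effect 2 were called higher and 1 lower (4.02% and 3.69% of all tested genes). Between cKO females and males 1 was called higher and 1 lower (1.43% and 1.27%), and between Ctrl females and males 1 higher (0.287%). By genotype 0 passed, with 1 in males (13.2% of all genes) and 0 in females (5.15%) at an unadjusted p under 0.05. The smallest edgeR p of the list in males was 0.00117 (adjusted 0.0847). Mme, a gene of this list named here after its values were seen, had separate ranges in males, as 1.28% of genes did. It was at 14.7 to 16.4 CPM in Ctrl and 10.2 to 13.9 CPM in cKO males, and its ranges overlapped in females. The renin gene Ren1 had 0 reads in all 26 libraries.

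**Figure D4:**
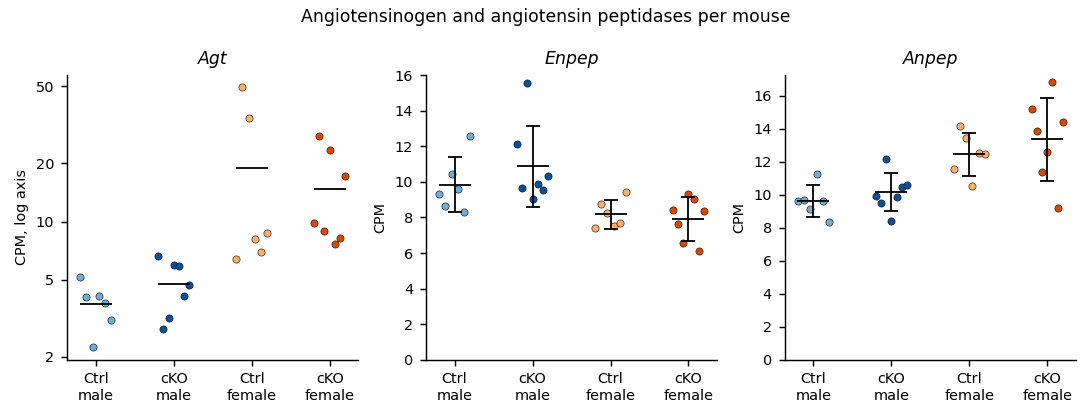
CPM of Agt (log axis), Enpep and Anpep (axes from 0) per mouse and group, with group means as horizontal bars and SD bars for Enpep and Anpep. All females lie above all males of their genotype for Agt, with 5 females from 17.1 to 49.4 CPM.

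Ednra had the smallest p of the 9 members in the mean genotype effect, and it did not pass. It encodes the ETA receptor, the main endothelin receptor of cardiomyocytes and vascular smooth muscle. Levels were 39.7, 45.7 and 55.9 CPM in Ctrl males and 37.8, 42.2 and 50.9 in cKO males. In females they were 42.9, 57.8 and 63.5 CPM in Ctrl and 38.1, 43.5 and 55.2 in cKO. All 7 cKO females lay below the Ctrl female mean, and the ranges overlapped through Ctrl female 2 (42.9 CPM) and cKO female 6 (55.2 CPM).

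The log2 difference of Ednra in females was -0.33 (SE 0.09, unadjusted p 0.000946, edgeR adjusted p 0.461), and that in males was -0.11 (SE 0.09, adjusted p 0.635). The mean genotype effect was -0.22 (SE 0.06, 95% interval -0.35 to -0.09, adjusted p 0.0709). It passed with DESeq2 (adjusted p 0.0219) and limma voom (0.039), without both females numbered 2 (0.0272), and without either Ctrl female 2 alone (0.0255) or cKO female 6 (0.0355). Over all alternatives the effect stayed between -0.28 and -0.19 and its adjusted p between 0.0219 and 0.194. The 2 genotype effects differed by -0.22 (SE 0.13, adjusted p 0.999), so a larger effect in females was not shown. Female Ctrl mice had a higher mean than male Ctrl mice by 0.28 (SE 0.09, adjusted p 0.18), and cKO mice of the 2 sexes differed by 0.06 (adjusted p 0.797). With the 2 marker covariates the mean genotype effect was -0.28 (adjusted p 0.0768).

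Ednrb, which encodes the ETB receptor of endothelium and other cells, had no called difference. Its levels were 18.2, 23.2 and 28.6 CPM in Ctrl males, 20.8, 22.5 and 32.4 in cKO males, 17.8, 21.3 and 44.9 in Ctrl females, and 20.7, 23.7 and 31.4 in cKO females. Ctrl female 2, at 44.9 CPM, stood alone above the rest. The cKO effect was 0.13 (95% interval -0.23 to 0.49) in males and 0.00 (-0.36 to 0.37) in females. The ratio of Ednra to Ednrb counts, not corrected for length, had medians of 1.78 in Ctrl males, 1.82 in cKO males, 2.86 in Ctrl females and 1.76 in cKO females, and it was 0.955 in Ctrl female 2. The ligand gene Edn1 was at 2.35 to 5.6 CPM, with log2 differences of 0.19 in males and -0.07 in females (adjusted p 0.724 and 0.997). Ece1, which encodes the enzyme that activates endothelin, had a mean genotype effect of 0.12 (SE 0.04, adjusted p 0.111). Of the 5 listed endothelin genes 3 were tested and 0 passed in any comparison. With an unadjusted p under 0.05 there was 1 in males, Ece1 (13.2% of all genes), and 0 in females (5.15%). The mean genotype effect had 2, Ece1 and Edn3 (14.1% of all genes). The ligand gene Edn3, named here after its values were seen, had means of 1.20 ± 0.354 and 1.93 ± 1.09 CPM in Ctrl and cKO males. In Ctrl and cKO females its means were 1.10 ± 0.377 and 1.57 ± 1.03 CPM.

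Npr1, the guanylyl cyclase receptor of ANP and BNP, had the smallest SD relative to its mean, with 24.5 to 35.6 CPM over all 26. Its lowest, median and highest levels were 27.1, 29.1 and 34.8 CPM in Ctrl males, 27.1, 31.2 and 32.6 in cKO males, 25.1, 30.5 and 33.7 in Ctrl females and 24.5, 31.8 and 35.6 in cKO females. The cKO effect was 0.05 (95% interval -0.11 to 0.20) in males and 0.06 (-0.10 to 0.22) in females. Npr3, the clearance receptor, had a wider spread, from 12.7 to 31.5 CPM.

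Npr3 levels were 12.7, 21.8 and 30.7 CPM in Ctrl males, 22.1, 24.6 and 28.3 in cKO males, 14.9, 21.9 and 27.3 in Ctrl females and 17.5, 25.2 and 31.5 in cKO females. Ctrl males 4, 5 and 6 were at 12.7 to 17.3 CPM and Ctrl males 1, 2 and 3 at 26.3 to 30.7 CPM, while the 7 cKO males lay above the former and overlapped the latter. The log2 difference of males was 0.23 (SE 0.17, edgeR adjusted p 0.614) and that of females 0.24 (SE 0.18, adjusted p 0.975), with a mean of 0.24 (SE 0.12, adjusted p 0.397). The 5 endocardial markers, which mark the cells where Npr3 is known to be high, summed to 60.5 to 104 CPM in Ctrl males, 84.1 to 123 in cKO males, 89.7 to 129 in Ctrl females and 99.9 to 143 in cKO females. Their part in the Npr3 difference was not tested.

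The ligand gene Nppa, which encodes ANP, was at 86.1, 198 and 422 CPM in Ctrl males, 124, 453 and 736 in cKO males, 177, 271 and 508 in Ctrl females and 324, 426 and 855 in cKO females. The mean genotype effect was 0.95 (SE 0.27, edgeR adjusted p 0.0812), and it passed with DESeq2 (adjusted p 0.00999) in which the male difference of 1.15 passed too (0.0423), and without Ctrl male 2 (0.0484), cKO male 7 (0.0348) or Ctrl female 6 (0.0476). Nppb, which encodes BNP, had a mean genotype effect of 0.14 (SE 0.19, adjusted p 0.826), and Npr2, the receptor of C-type natriuretic peptide, of 0.04 (SE 0.04, adjusted p 0.66). Of the 15 listed natriuretic genes 12 were tested and 0 passed by genotype. Those with an unadjusted p under 0.05 were 3 in males (13.2% of all genes) and 1 in females (5.15%). The mean genotype effect had 2 (14.1%). Furin, which encodes a protease that processes natriuretic and many other precursors, was the 1 called in any comparison, higher in Ctrl females than in Ctrl males by 0.28 (SE 0.06, adjusted p 0.0217). In that comparison 0.638% of all tested genes were called, 0.287% higher. The Furin call was lost without Ctrl male 3, 4 or 6 or Ctrl female 4 or 6 (adjusted p 0.0536 to 0.0588), and without Ctrl males 3 and 6 together its adjusted p was 0.15. In cKO mice the Furin difference was -0.04, and the difference of the genotype effects was -0.32 (SE 0.08, unadjusted p 0.000617, adjusted p 0.999).

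The genes closest to each member were sought among 15348 tested genes by Pearson r of the deviations of log2 CPM from group means over 26 mice, as a description without a test. Adrb1 was closest to Pde4a (0.868), Pigo (0.867) and Fzd7 (0.864), and the first of these is a phosphodiesterase gene of the adrenergic list. These values rested partly on the females numbered 2, without which they were 0.756, 0.705 and 0.714. Adra1a was closest to Proser2 (0.881), Foxj3 (0.776) and Midn (0.742), and Adra1b to Gm5898 (0.803), Neo1 (0.74) and Cacna1g (0.724). Agtr1a was closest to Coq8a (0.861), Lbh (0.860) and Kcnn2 (0.844). Ace was closest to Itgbl1 (0.849), Bgn (0.838), which encodes the matrix proteoglycan biglycan, and Ptgfrn (0.810).

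Ednra was closest to Il15ra (0.779), Zfp617 (0.771) and Uhrf1bp1l (0.751), and Ednrb to Dgkh (0.868), Gm12715 (0.819) and Notch1 (0.815). Without the females numbered 2 the Ednrb values were 0.764, 0.664 and 0.721. Npr1 had the weakest neighbours, Ndufaf8 (0.722), Rapgef3 (0.676) and Fxyd2 (0.671). Npr1 deviations had r = 0.566 with the endothelial marker sum (rho = 0.454, permutation p 0.00397). That relation did not pass after adjustment (0.0547 over 81 relations), and r was 0.47 without the 2 most distant mice. Npr3 was closest to Smoc1 (0.874), Nrg1 (0.858) and Plvap (0.836), of which Smoc1 and Plvap are on the endocardial marker list. Among the members themselves, Adra1b and Ace had deviations of opposite sign (r = -0.602, rho = -0.745, permutation p 0.00197, adjusted 0.0532 over 81 relations, and r = -0.779 without the 2 most distant mice). So did Adrb1 and Ednrb (r = -0.687, rho = -0.484, permutation p 0.00405, adjusted 0.0547), but r was -0.354 without the females numbered 2, and neither relation passed after adjustment.

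**Figure D5:**
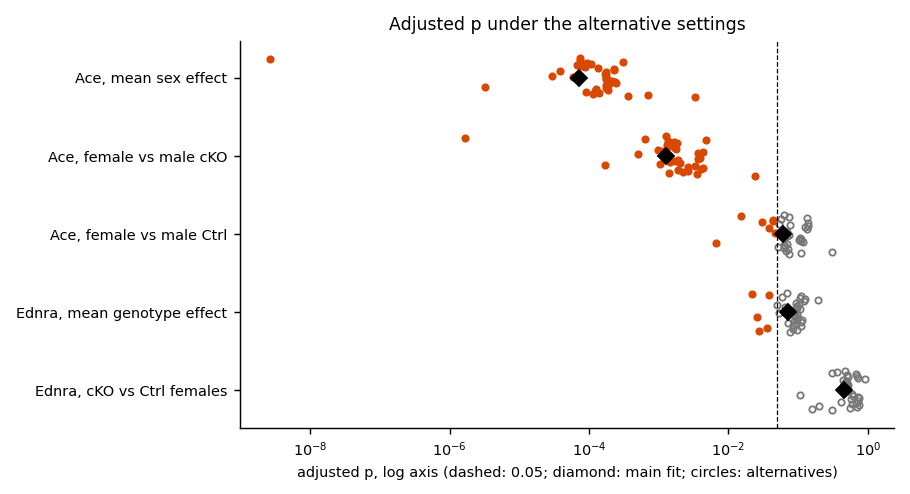
Adjusted p (log axis) of the Ace sex differences and the Ednra genotype differences, as fitted (diamonds) and under each alternative (circles, filled where under 0.05, the dashed line). All circles of the Ace mean sex effect and cKO sex difference lie left of the line, and those of the Ednra mean genotype effect lie on both sides, from 0.0219 to 0.194.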

How the data were processed

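RNA sequencing counted transcripts in left ventricle tissue of 26 mice from poly-A selected, stranded libraries. The matrix deposited by the authors holds raw integer counts for each gene, and its 26 sample columns each matched 1 title in the labels. Per the submitters' processing notes, FastQC 0.74, cutadapt 4.6, STAR 2.7.11a and HTSeq were used with GRCm39. The annotation release and strand setting are not given in the sources used here, so reads of overlapping or antisense genes cannot be told apart. Gene IDs were looked up in GENCODE M21 for transcript length and GC content (98.3% of tested genes found). Promoter sequences came from RefSeq (GRCm38.p6), where Ace and Agt matched by symbol.

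Groups follow the genotype and sex in the labels, which name no batch; they do not say how mice were spread over litters, so p-values measure the spread between these samples. Within groups, the 72 pairs of libraries differed by chi-square per degree of freedom of 7.79 to 36.4, so none was a copy. Counts were fitted in edgeR 4.0.16 (filterByExpr with a minimum count of 10, TMM, 4 group means, robust quasi-likelihood F test) with Benjamini-Hochberg adjustment over 15357 genes and calls at an adjusted p under 0.05. The SE is the size of the log2 fold change divided by the square root of F. CPM used TMM-scaled totals, and log2 CPM a prior count of 2. Correlations used deviations from group means with 100000 permutations within groups, two-sided. The fit was tested on simulated data.

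Genes named are the 9 members, Ppp2r2a, listed pathway genes that passed in any comparison, pathway genes always given (some of which are not reported here), and the 3 genes most like each member. Members, lists and tests were chosen with earlier results of these data known. Alternatives were DESeq2 1.42.0 (its size factors within edgeR, and its Wald test), limma 3.58.1 voom with sample quality weights, dropping the count filter, filtering at a mean CPM of 5, fitting just the 2 groups compared, the replicate number as a block, a length and GC offset, a threshold of 0.1, each mouse left out, Ctrl males 3 and 6 or the females numbered 2 left out, and, chosen after seeing the data, fibroblast and cardiomyocyte marker sums as covariates.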

Additional observations from a re-analysis of the deposited data

Results flagged for a closer look

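In 4 of 36 sets of values (9 genes in 4 groups), 1 mouse stood apart from the rest of its group by Dixon's criterion at the 95% level, which chance gives in about 1 of 20 groups. Adrb1 was at 9.45 CPM in cKO female 2, with the nearest other mouse at 16.4 CPM. Ednrb was at 44.9 CPM in Ctrl female 2, with the nearest at 22.6 CPM. Ace was at 97.0 CPM in Ctrl female 6, with the nearest at 72.0 CPM, and this is the mouse through which the Ctrl sexes overlapped. Npr1 was at 34.8 CPM in Ctrl male 4, with the nearest at 29.9 CPM. The causes were not tested.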

How the results depend on the processing

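Of 2430 recomputed log2 fold changes of the 9 members, 2284 kept their sign, and the largest value that changed sign was 0.128 in size. In both genotype comparisons and their difference the count of members called stayed at 0 under every alternative run, and in cKO mice the sex comparison stayed at 1, Ace. The Ctrl sex comparison went from 0 to 1 (Ace) with the DESeq2 Wald test, the replicate block, the length and GC offset, the block with that offset, and the threshold of 0.1, and ranged from 0 to 1 when single mice were left out (1 without Ctrl male 5, cKO male 3 or Ctrl female 6). The mean genotype effect went from 0 to 1 (Ednra) with the DESeq2 Wald test, limma voom, the threshold of 0.1 and omission of the females numbered 2, and ranged from 0 to 1 when single mice were left out (1 without Ctrl female 2 or cKO female 6). The mean sex effect went from 1 to 2 (Ace and Ednra) without the females numbered 2, and ranged from 1 to 2 when single mice were left out (2 without Ctrl male 1 or Ctrl female 2). The causes were not tested.

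Same-numbered mice correlated in their deviations at mean r from -0.0259 to 0.118 between groups. Whether the replicate numbers pair the mice was not tested. Single same-numbered pairs reached 0.404 between Ctrl and cKO females, whose same-numbered pairs ranged from -0.0969 upward and whose other pairs had a mean of -0.0186. The replicate block changed no other call of a member. Counts over all genes depend more on the setting, for example 68 called in males as fitted against 390 with the DESeq2 Wald test, 188 with limma voom, 14 with the length and GC offset and 2 with the marker covariates. Genes with at most 4 reads, such as Agtr1b and Agtr2, were below what this depth can compare.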
